A study of Mus musculus with 7 samples.

Results

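The insulin-like growth factor (IGF) family was examined in the soleus, a hindlimb muscle rich in slow fibres, of 7 mice. They lack tenascin-C, a glycoprotein of the extracellular matrix encoded by Tnc. The members are the 10 array probes whose symbol in the supplied annotation is Igf1 (2 probes, named 16I and 22H in the files), Igf2, Igf1r, Igf2r, Igfbp2, Igfbp3, Igfbp4, Igfbp5 or Igfbp6, out of 223 probes in all; they stand for 9 of the 203 named genes on the array. The animals were 129/SV mice kept as cage controls, labelled as Tnc null, with 1 array per mouse, and they form a single group. The sources used here do not give age, sex or the way the gene was inactivated. With 1 group, the comparisons are between the mice, and what the loss of Tnc does to these genes cannot be read from them. The labels call the 7 samples biological replicates, and the replicate numbers follow accession order and only name the mice.

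Igf1 and Igf2 are small secreted hormones related to insulin. Igf1 signals through the tyrosine kinase Igf1r to promote protein synthesis and growth of muscle fibres, Igf2 acts mainly on the growth of the embryo and on differentiating muscle cells, and Igf2r, the cation-independent mannose 6-phosphate receptor, takes Igf2 up and clears it. The binding proteins carry the hormones outside the cell and limit or prolong their access to the receptors. Igfbp6 prefers Igf2, and Igfbp5 and Igfbp4 are known from muscle and from cultured muscle cells.

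The signals of Igf1, Igfbp6 and Igf2 set the family's pattern between the mice, so the sequence around a transcription start of each is shown. All 9 member genes were matched by symbol to promoter windows from RefSeq (build GRCm38.p6), each from 250 bases before to 50 bases after a start. The windows are chr10:87860861-87861160 on the plus strand for Igf1, chr15:102143936-102144235 on the plus strand for Igfbp6, and chr7:142657447-142657746 on the minus strand for Igf2, the last of 4 starts listed for that gene along its direction of transcription. Capitals mark matches on either strand to the E-box CANNTG, which myogenic factors can bind, to the STAT-type motif TTCNNNGAA, through which growth hormone can act, to the GC box GGGCGG and to TATAAA.
Igf1: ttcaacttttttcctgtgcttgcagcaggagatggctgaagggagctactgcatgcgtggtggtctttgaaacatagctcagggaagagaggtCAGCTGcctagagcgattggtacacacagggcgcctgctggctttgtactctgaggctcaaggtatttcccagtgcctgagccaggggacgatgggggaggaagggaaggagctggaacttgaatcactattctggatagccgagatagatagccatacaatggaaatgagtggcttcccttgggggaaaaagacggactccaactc
Igfbp6: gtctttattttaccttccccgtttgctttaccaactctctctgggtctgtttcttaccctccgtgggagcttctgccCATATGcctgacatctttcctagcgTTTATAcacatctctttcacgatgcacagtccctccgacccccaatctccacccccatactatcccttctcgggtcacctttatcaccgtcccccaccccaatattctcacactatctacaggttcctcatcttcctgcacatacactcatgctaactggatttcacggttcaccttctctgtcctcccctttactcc
Igf2: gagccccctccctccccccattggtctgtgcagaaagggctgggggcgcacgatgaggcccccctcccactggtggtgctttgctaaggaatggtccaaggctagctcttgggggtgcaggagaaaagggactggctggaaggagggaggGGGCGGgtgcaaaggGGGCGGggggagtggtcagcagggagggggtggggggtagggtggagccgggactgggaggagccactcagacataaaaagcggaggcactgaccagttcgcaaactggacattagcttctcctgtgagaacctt
The Igf1 window held 1 E-box and none of the other motifs. The Igfbp6 window held 1 E-box and 1 match to TATAAA on the opposite strand, and the Igf2 window shown held 2 GC boxes and no E-box. Of the other Igf2 starts, the first held 2 E-boxes and no GC box, the second neither, and the third 1 of each. Over all 32851 RefSeq windows of this length, 72.3% held an E-box, 8.3% the STAT-type motif, 35.7% a GC box and 13.6% TATAAA, and none of the motif letters overlapped in the 3 windows shown. G and C made up 52.3% of the Igf1 window, 49.7% of the Igfbp6 window and 63.3% of that Igf2 window, against 76.0% for Igf1r and 70.7% for Igf2r. These are matches of letters, and the arrays measured no binding.

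Each value is a probe's share of the summed signal of its array, in percent, recorded in steps of 0.01% except for 1 value of a gene outside the family. The amount of signal also depends on primer and probe, so levels are compared between mice for 1 probe and never between genes. No flag marks which spots were detected, so each array's 10th percentile, from 0.04% to 0.15%, served as its floor. A probe above 3 times that floor is called detected here. Replicate 3 stood apart from the other 6 arrays. Its floor (0.15%) and median probe (0.18%) were the highest of the 7, and 29 of its probes were detected against 42 to 70 elsewhere. Myh7 and Mb, listed here as slow-fibre markers, summed to 15.2% to 22.0% on the other arrays and to 0.67% there. The fast-fibre markers Myh1, Myh2 and Myh4 summed to 3.85% to 8.77% on the other arrays and to 0.83% there. Replicate 3 is labelled as soleus like the others, but its defining muscle markers read close to its floor, so its values are given as those of the array with that label. The main results are given with and without it. The Tnc probe itself carried 0.133% ± 0.039 (SD, n = 7), reading 0.08% to 0.18%, and was detected on 0 of 7 arrays.

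Igf1, the main muscle growth factor of the family, read low on 6 arrays and high on the array labelled replicate 3, by both of its probes. Probe 16I carried 0.06%, 0.05%, 2.66%, 0.36%, 0.14%, 0.15% and 0.11% in replicates 1 to 7. Probe 22H carried 0.10%, 0.10%, 4.93%, 0.46%, 0.16%, 0.19% and 0.13% in the same order. On both probes replicate 3 was highest and replicate 4 next, and replicates 1 and 2 were the lowest. Over all 7 mice 16I averaged 0.504% ± 0.956 and 22H 0.867% ± 1.80 (SD, n = 7), and without replicate 3 they averaged 0.145% ± 0.113 and 0.190% ± 0.137 (SD, n = 6). Replicate 3 was 7.39 times the next highest array on 16I and 10.7 times on 22H.

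Apart from replicate 3, Igf1 lay close to the floor. Probe 16I was detected on 1 of the other 6 arrays and 22H on 3 of them. In replicate 3 the 2 probes stood 17.7 and 32.9 times above the floor of that array. The ratio of 22H to 16I was 1.67, 2.0 and 1.85 in replicates 1 to 3 and 1.28, 1.14, 1.27 and 1.18 in replicates 4 to 7. The 2 probes therefore ranked the high arrays alike while their ratio differed between arrays. In replicates 1 and 2 the 16I reading spans only 5 or 6 recording steps, so the ratio there is coarse.

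**Figure D1:**
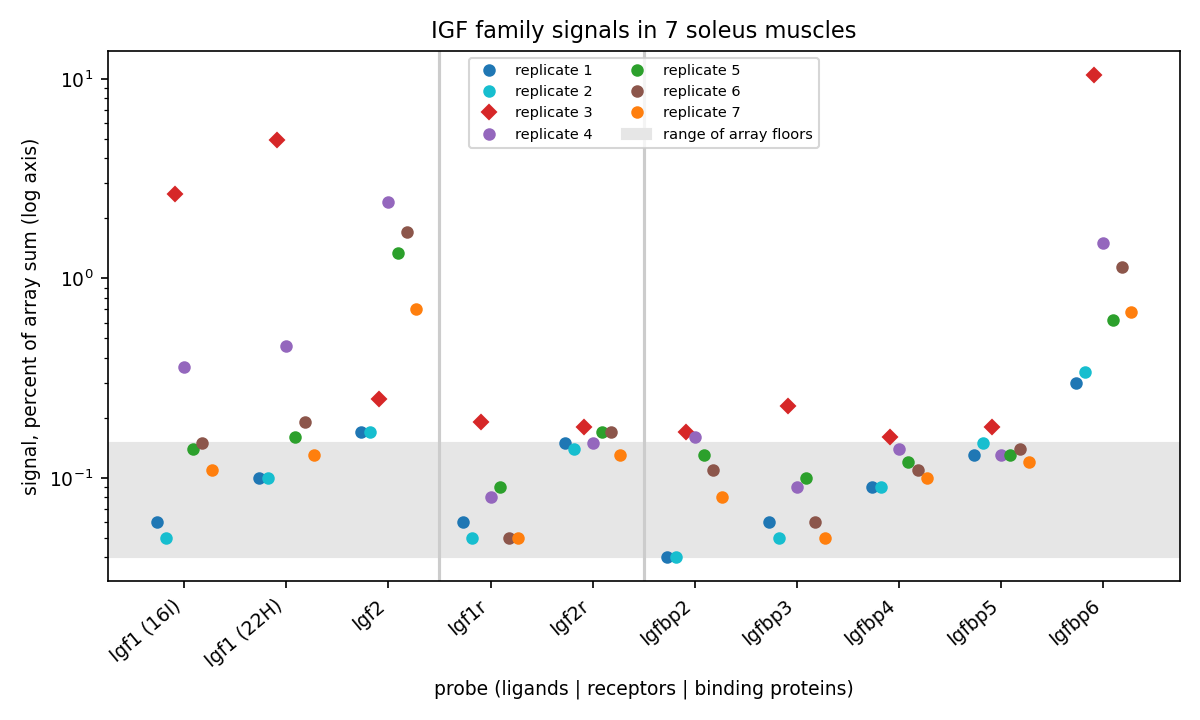
Signal of the 10 IGF family probes in each of 7 soleus muscles, as percent of the array sum on a log axis, with 1 point per mouse and the range of the array floors (0.04% to 0.15%) shaded. Replicate 3 (diamonds) is far above the others for both Igf1 probes and Igfbp6, while Igf2 is highest in replicate 4 and low in replicates 1, 2 and 3.

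Igf2, the second ligand, differed between the mice in another way. It carried 0.17% in replicate 1, 0.17% in replicate 2, 0.25% in replicate 3, 2.42% in replicate 4, 1.34% in replicate 5, 1.70% in replicate 6 and 0.70% in replicate 7. The mice thus fell into 3 with a low and 4 with a high signal, without overlap, and replicate 3 was among the low ones although its floor was the highest. The mean was 0.964% ± 0.880 over all mice (SD, n = 7) and 1.08% ± 0.90 without replicate 3 (SD, n = 6). Igf2 was detected on these 6 arrays, narrowly so in replicate 1 at 3.4 times the floor and far above it in replicate 6 at 34 times. In replicate 3 it stood at 1.67 times the floor. The mean of replicates 4 to 7 was 9.06 times that of replicates 1 and 2, a split read from these data and not from a label. The 28S rRNA signal followed the same split, between 24.1% and 49.7% in replicates 4 to 7 but only 3.48% and 3.79% in replicates 1 and 2, and 0.37% in replicate 3. Its part in the Igf2 signal was not tested.

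The receptor probes read near the floor in most mice, and Igf2r varied little between them in percent of the array sum. Igf1r, the signalling receptor for Igf1, carried 0.06%, 0.05%, 0.19%, 0.08%, 0.09%, 0.05% and 0.05% in replicates 1 to 7. It was detected in none of the 7 mice, at 1.0 to 1.27 times the floor, and its reading in replicate 3 was 1.27 times the raised floor of that array. Its mean was 0.081% ± 0.050 (SD, n = 7), and 0.063% ± 0.018 without replicate 3 (SD, n = 6). Igf2r, the clearance receptor for Igf2, carried 0.15%, 0.14%, 0.18%, 0.15%, 0.17%, 0.17% and 0.13% in the same order. It was detected in 3 mice, replicates 2, 6 and 7, at 3.25 to 3.5 times the floor. These calls depend on the floors and do not rank the mice. Replicate 7 passed with the lowest reading (0.13%, floor 0.04%), and replicate 5 did not at 0.17% (floor 0.08%). The mean of Igf2r was 0.156% ± 0.018 (SD, n = 7), and 0.152% ± 0.016 without replicate 3 (SD, n = 6). The mice with high Igf2 (replicates 4 to 7) had Igf2r between 0.13% and 0.17%, and replicates 1 and 2 lay inside that range. As multiples of the array median, Igf2r was 2.14 and 2.0 in replicates 1 and 2 and lower, 1.15 to 1.7, in replicates 4 to 7.

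Igfbp6, the binding protein that prefers Igf2, was detected in every mouse and read far higher in replicate 3 than in the others. It carried 0.30%, 0.34%, 10.48%, 1.51%, 0.62%, 1.14% and 0.68% in replicates 1 to 7, and it was the only member detected on all 7 arrays. In replicate 3 it was the brightest of all 223 probes, and on the other arrays it ranked 18th to 33rd. Its mean was 2.15% ± 3.70 over all mice (SD, n = 7) and 0.765% ± 0.473 without replicate 3 (SD, n = 6). Replicate 3 was 6.94 times replicate 4, the next highest. In percent of the array sum, Igfbp6 among the other 6 mice was lowest in replicates 1 and 2. The mean of replicates 4 to 7, which all lay above them, was 3.09 times theirs. As a multiple of the floor, replicate 5 (7.75) lay below replicate 2 (8.5).

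The other binding proteins stayed near the floor. Igfbp2, a binding protein abundant in the embryo and in serum, carried 0.04%, 0.04%, 0.17%, 0.16%, 0.13%, 0.11% and 0.08% in replicates 1 to 7. Igfbp3, the main carrier of Igf1 in blood, carried 0.05% to 0.10% outside replicate 3 and 0.23% in it. Igfbp4 carried 0.09% to 0.14% and 0.16%. These 3 were detected in none of the 7 mice. Igfbp5, which binds the matrix, carried 0.12% to 0.15% outside replicate 3 and 0.18% in it, and was detected in replicate 2 only, at 3.75 times the floor. Their values in replicate 3 were 1.07 to 1.53 times the floor of that array.

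**Figure D2:**
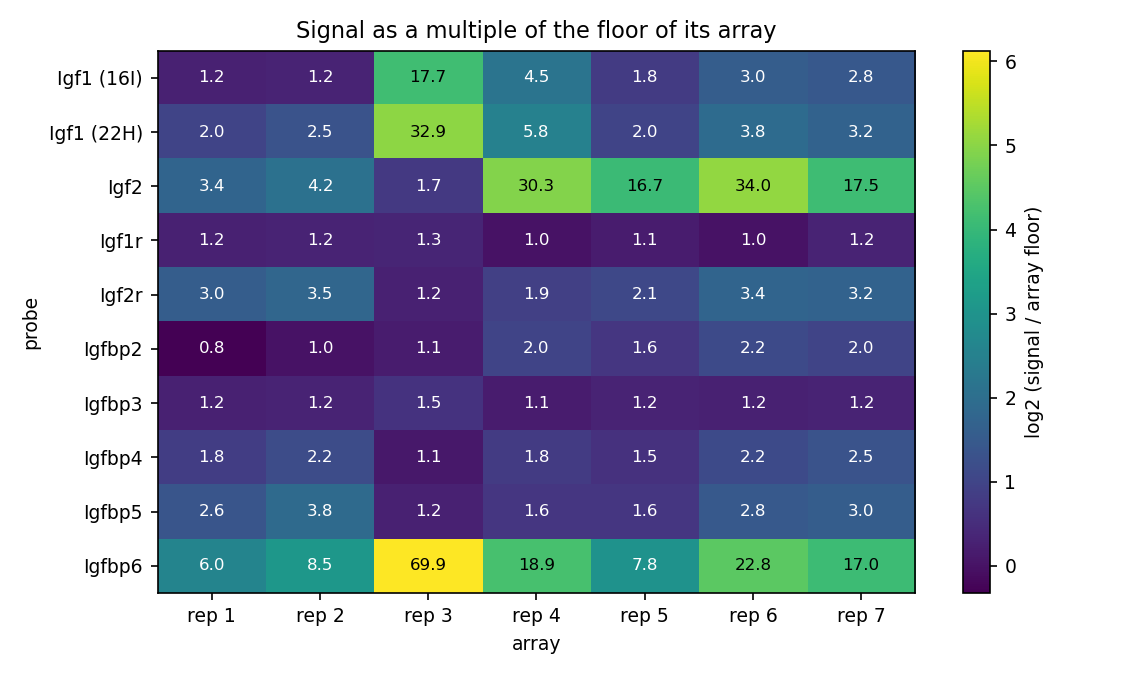
Each cell gives a probe's signal divided by the floor (10th percentile) of its array, for 10 probes and 7 arrays, with colour on a log2 scale. Igfbp6 reaches 69.9 times the floor in replicate 3 and Igf2 34 times in replicate 6, while Igf1r, Igfbp2, Igfbp3 and Igfbp4 stay at or below 2.5 times the floor on every array.

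Counts over the members were set beside the same counts over all probes. Of the 10 member probes, 2 (Igf2 and Igfbp6) were detected on all 6 arrays without replicate 3, against 17% of all 223 probes. The 4 members Igf1r, Igfbp2, Igfbp3 and Igfbp4 were detected on none of these 6, against 62.8%. Within replicate 3, 3 members were detected, both Igf1 probes and Igfbp6, against 13% of all probes. As a share of the array sum, 9 of 10 members were highest in replicate 3, against 70.4% of all probes. As multiples of each array's median probe, 5 of 10 were (both Igf1 probes, Igf1r, Igfbp3 and Igfbp6), against 43%, so the counts depend on the scaling, since the array medians ran from 0.07% to 0.18%.

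Replicate 4 came next for both Igf1 probes and Igfbp6. Among the 6 arrays other than replicate 3, it was highest for 6 of 10 members, namely both Igf1 probes, Igf2, Igfbp2, Igfbp4 and Igfbp6, against 42.2% of all probes. Of these members, Igfbp2 and Igfbp4 were detected on none of the arrays, and replicate 4 had the highest median probe (0.13%) of the 6 arrays. As multiples of the array median, replicate 4 was highest for 5 of the 10 members, without Igfbp4, against 15.2%. Of the 10 brightest probes of replicate 3, 9 have a gene name, and for 8 of these replicate 4 was the highest of the other 6 arrays. Replicate 3 exceeded replicate 4 on these 8 by 6.94 to 25.9 times. These 8 include Igfbp6 and both Igf1 probes, and were chosen for their brightness in replicate 3.

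The split between replicates 1 and 2 and replicates 4 to 7 appeared in both ligands, Igfbp2 and Igfbp6. This held in percent and as multiples of the array median. On the median scale it held only narrowly for Igf1 22H, at 1.43 in replicates 1 and 2 and 1.45 in replicate 5. As multiples of the floor the split failed for Igf1 22H (2.5 in replicate 2, 2.0 in replicate 5) and Igfbp6 (8.5 and 7.75). Igfbp2 was detected in none of the mice, and Igf1 16I in replicate 4 only among these 6 arrays. In percent of the array sum, 6 of 10 members read higher in each of replicates 4 to 7 than in both of replicates 1 and 2 (both Igf1 probes, Igf2, Igfbp2, Igfbp4 and Igfbp6), against 30% of all probes, and none read lower, against 4.48%. As multiples of the array median, 5 of 10 read higher, without Igfbp4, against 15.7%. On that scale Igf2r, Igfbp4 and Igfbp5 read lower in each of replicates 4 to 7, against 22.4% of all probes, so Igfbp4 changed direction with the scaling. The grouping was read from these data, Igf2 among them, so these counts describe it and do not test it. Igf1 enters them with 2 probes. Fast-fibre markers and part of the endothelial markers moved with this split as well. In percent of the array sum all 3 fast-fibre probes read lower in each of replicates 4 to 7 than in replicates 1 and 2. They summed to 3.85% to 5.56% against 8.77% and 8.27%. Of 5 endothelial probes 3 (Pecam1, Cdh5 and Flt1) read higher, and Kdr and Tek did not. No slow-fibre, myoblast, fibroblast, adipocyte or leukocyte probe was higher or lower in all of replicates 4 to 7. Markers were not counted as multiples of the array median. The part of fast fibres and endothelium in the Igf1, Igf2 and Igfbp6 signals was not tested. Replicates 1 and 2 agreed within 1 recording step for 8 of 10 members, against 68.6% of all probes. Nothing in the labels sets these 2 mice apart, and replicate 1 alone has the code C16 in its title, where the others have C15.

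The family's summed signal was 1.16%, 1.18%, 19.43%, 5.5%, 3.0%, 3.82% and 2.15% of the array sum in replicates 1 to 7. The mean was 5.18% ± 6.47 (SD, n = 7), 2.80% ± 1.68 without replicate 3 (SD, n = 6) and 2.26% ± 1.16 without replicates 3 and 4 (SD, n = 5). Because all shares of an array add to a fixed sum, a bright probe lowers the share of the others. In whole muscle, fewer cells of a type and less RNA per cell cannot be told apart.

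Spread between the mice was then tested for each probe against all probes of a like level, with limma's variance trend and Benjamini-Hochberg adjustment over all 223 probes. Over all 7 arrays 0% of probes and no member passed, and 17 probes (7.62%), of which both Igf1 probes are the only members, had an unadjusted p under 0.05. The trend was fitted to these same arrays, replicate 3 included. The log2 SD was 1.95 for Igf1 probe 16I (limma adjusted p = 0.244), 2.01 for 22H (0.244), 1.74 for Igfbp6 (0.790) and 1.63 for Igf2 (0.620). Without replicate 3, 2.24% of probes passed, and Igf2 was the 1 member among them, with a log2 SD of 1.68 against a trend of 0.38 (limma adjusted p = 0.0307). Igf1 then had SDs of 1.03 on 16I and 0.82 on 22H (limma adjusted p = 0.207 and 0.381), and Igfbp6 0.92 (limma adjusted p = 0.210). Igf2r and Igfbp5 had the smallest SDs of the family, 0.15 and 0.11, with readings close to the floor, so a small SD does not show a steady transcript. After median-centring these SDs were 0.31 and 0.41. The median SD was 0.63 for the 10 members and 0.44 for all probes without replicate 3, and 0.83 and 0.69 with it. The call of Igf2 did not hold after median-centring of the arrays (limma adjusted p = 0.466), quantile normalization (0.905), removal of the dimmest probes (0.553) or a fit without trend (0.361). Its SD itself stayed at 1.34 after median-centring and 1.42 after quantile normalization. If replicates 1 and 2 are not independent, these p-values overstate the evidence.

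**Figure D3:**
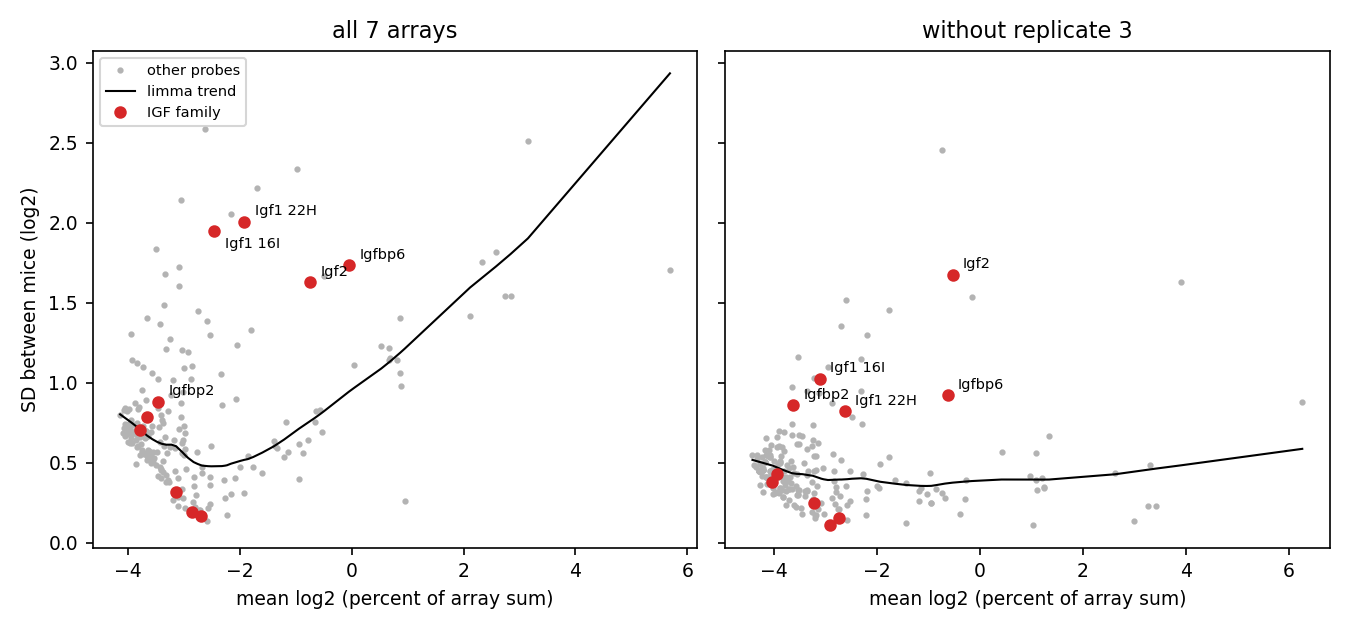
SD between mice (log2) against mean log2 signal for 223 probes over all 7 arrays (left) and without replicate 3 (right), with limma's variance trend as a line and the 10 IGF family probes in red. Both Igf1 probes lie far above the trend on the left (1.95 and 2.01) and nearer to it on the right (1.03 and 0.82), where Igf2 (1.68) stands highest of the family.

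The profiles most like those of the 4 brighter probes were sought among named probes outside the family, over the 6 arrays other than replicate 3, by the root mean square (RMS) difference of centred log2 signals. For Igf1 22H these were Ldhc, the testis-type lactate dehydrogenase (0.12), the endothelial adhesion molecule Pecam1 (0.12) and Nos2, the inducible nitric oxide synthase (0.24). For Igf1 16I they were Nos2 (0.16), the cyclin-dependent kinase Cdk4 (0.20) and Pecam1 (0.24). The 2 Igf1 probes differed from each other by 0.29, and each was only the 6th closest of 222 probes to the other. Replicate 3 was not used for this choice, and there Pecam1 and Ldhc read 8.36% and 4.38%, while Nos2 and Cdk4 read 0.45% and 0.19%. The shared profile over 6 mice thus did not extend to replicate 3 for all of these probes.

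For Igf2 the closest profiles were those of 28S rRNA (0.34), Csf2rb2, a cytokine receptor subunit (0.34), and Ang, angiogenin (0.36). Both probes carried 0.05% in replicates 1 and 2. In replicates 4 to 7 Csf2rb2 read from 0.15% to 0.39% and Ang from 0.16% to 0.62%. For Igfbp6 they were Ang2, an angiogenin family ribonuclease (0.22), Cdk4 (0.25) and the endothelial cadherin Cdh5 (0.25). Igfbp6 read 10.48% in replicate 3, where these read 0.16%, 0.19% and 0.60%. All of them except 28S rRNA were detected on at most 4 of the 6 arrays, so likeness includes readings near the floor.

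**Figure D4:**
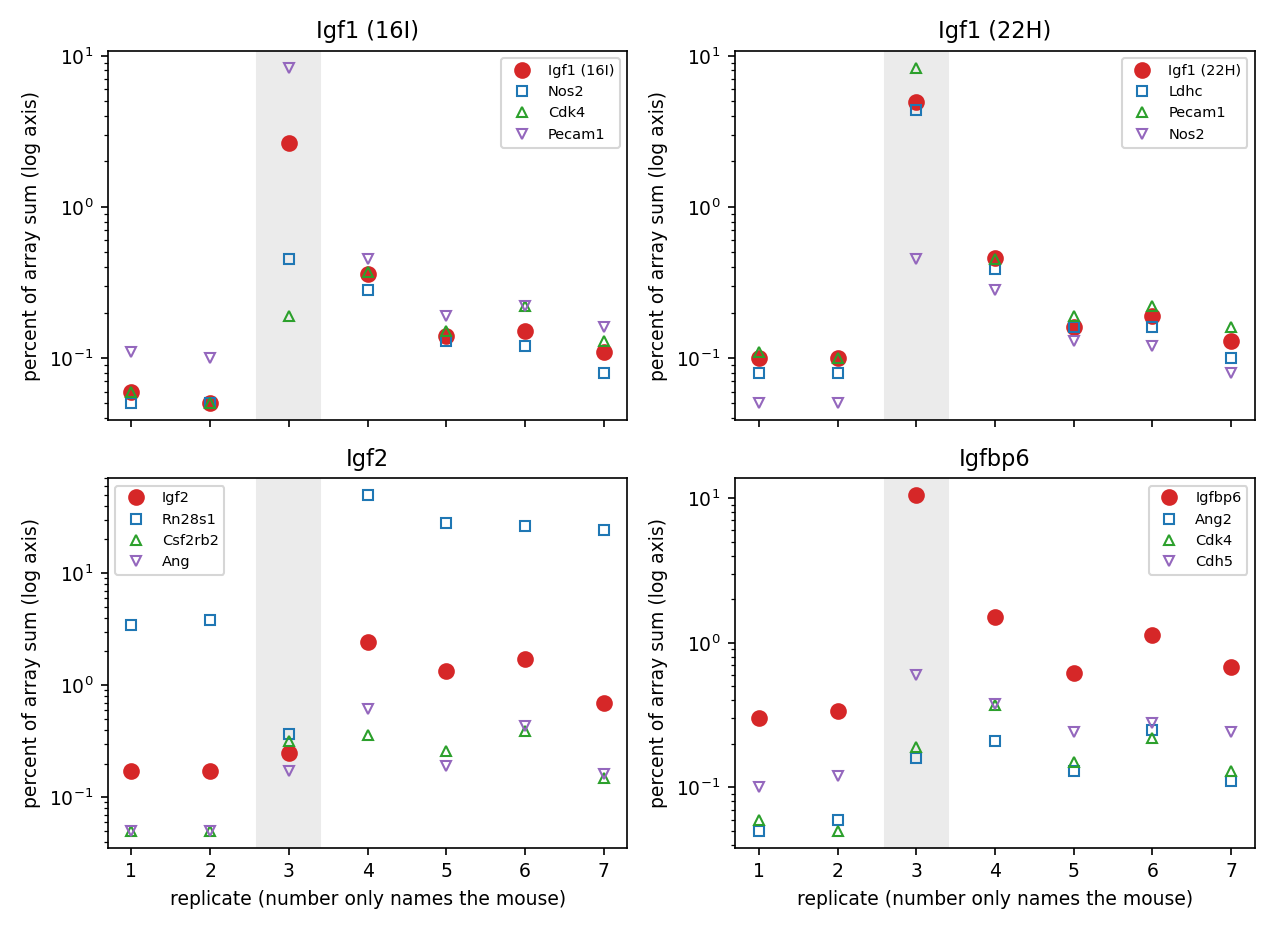
Signal in percent of the array sum (log axis) of both Igf1 probes, Igf2 and Igfbp6 (filled red) and of the 3 named probes with the most similar profile over the 6 arrays other than replicate 3 (open symbols), for 7 mice whose numbers have no order. The shaded replicate 3 was not used in the choice, and there Igf1 22H (4.93%) lies beside Ldhc (4.38%), whereas Igfbp6 (10.48%) lies far above Ang2, Cdk4 and Cdh5.

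Other genes of the pathway had few probes. Of 37 genes listed for IGF and insulin signalling outside the family, 4 had a probe, none passed the limma variance test with or without replicate 3 (0% and 2.24% of all probes), and all 4 read highest in replicate 3, as did 70.4% of all probes. Slc2a4, the insulin-responsive glucose transporter, was the 1 detected on all 6 other arrays, at 0.527% ± 0.080 (SD, n = 6) against 2.22% in replicate 3. Ghr, the growth hormone receptor that drives Igf1 production in liver, carried 0.155% ± 0.031 (SD, n = 6) and 0.41%. The insulin receptor Insr carried 0.077% ± 0.021 (SD, n = 6) and 0.16% in replicate 3, and Igfbp1, a binding protein made mainly by liver, 0.085% ± 0.026 (SD, n = 6) and 0.20%. Neither was detected on any of these 6 arrays. In replicate 3, Ghr, Insr and Igfbp1 all read below the detection threshold of that array (0.45%).

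The remaining growth factor and protease lists lay mostly near the floor. Of 17 probes for other growth factors and receptors, 1 was detected on all 6 arrays without replicate 3 (17% of all probes), 14 read highest in replicate 3 (70.4%), and 1 passed the variance test without replicate 3 (2.24%). Both single probes are Il6st, which encodes the signalling subunit that receptors for interleukin-6 and related cytokines have in common. Il6st ran from 1.13% to 2.24% in replicates 4 to 7 but read 0.23%, 0.24% and 0.17% in replicates 1, 2 and 3, low and high in the same mice as Igf2 (limma adjusted p = 0.0358 without replicate 3 and 0.644 with it). Hgf, hepatocyte growth factor, which activates muscle stem cells, carried 1.20% in replicate 3 and 0.04% to 0.25% elsewhere. Of 11 probes for proteases and matrix partners of the binding proteins, 0 were detected on all 6 of these arrays, and Timp2, a protease inhibitor, read 0.15% to 0.24% on all 7.

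Markers of other cell types were read beside Igf1 and Igfbp6. All 5 endothelial probes read highest in replicate 3, as did 70.4% of all probes, and there they summed to 9.50% against 0.45% to 1.27% elsewhere, of which Pecam1 made up 8.36%, while Kdr and Tek read 0.16% each, near the floor of that array. The 3 probes for myoblasts summed to 3.42% in replicate 3 and 0.13% to 0.31% elsewhere, with Myod1 at 3.11% and Myog and Myf5 at 0.16% and 0.15%. The 3 fibroblast probes summed to 0.49% against 0.24% to 0.34%, and the leukocyte probe Il1b read 0.17% against 0.04% to 0.09%. The 2 adipocyte probes summed to 0.34% against 0.39% to 0.71%. In replicate 3 each fibroblast, leukocyte and adipocyte probe read 0.16% to 0.18%, near the floor of that array (0.15%), as did Myog and Myf5. The fibroblast and leukocyte readings therefore follow the raised floor there, as do Myog and Myf5, and do not show more signal of those cell types. Of the adipocyte probes, Lipe read 0.04% to 0.09% elsewhere and 0.16% there. Fabp4 was detected on all 6 other arrays, at 0.34% to 0.66%, and was lowest in replicate 3, at 0.18%. The part of the marked cell types in the Igf1 and Igfbp6 signals was not tested, and the blood and nerve lists had 0 probes.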

How the data were processed

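Per the labels' protocols, 4 µg of total RNA from cryosections of each soleus was reverse transcribed with gene-specific primers and a radioactive nucleotide and hybridised to a 1-channel array. The authors deposited linear spot intensity values for 223 probes on 7 arrays. The values of an array, leaving out 28S rRNA and an unnamed bright probe, add up to 0.998 to 1.0, so a value is a share of the array sum. The sources used here give neither the background treatment nor the software. Depth has no counterpart here, and the number of arrays limits the precision.

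Of the probes, 205 had 1 gene symbol and 18 had none. Log2 values were analysed without further scaling in limma 3.58.1 (R 4.3.3), with an intercept-only design and a one-sided F test of each variance against the robust trend, at an adjusted p of 0.05. The test was also run on simulated data with independent normal noise. That simulation held no outlying array, shared array effect or recording step, so it does not show how the test behaves on these arrays. Members, lists, the floor and the exclusion of replicate 3 were chosen with earlier results of these data known. All members are named, with the 3 closest profiles of each Igf1 probe, Igf2 and Igfbp6, and from each list the probes detected on every array but replicate 3, receptors and ligands. Timp2, Hgf and marker genes were named after their values were seen. Alternatives were quantile normalization, median-centring, removal of probes under the 25th percentile, a pseudocount of 0.05%, a fit without trend and leaving out replicates. Nearest profiles and levels carry no test.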

Additional observations from a re-analysis of the deposited data

Results flagged for a closer look

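Of 10 member probes examined on the log2 scale, 1 had a mouse far from the other 6. For the Igf1 probe 22H the gap from replicate 3 to the next mouse was 0.608 of the whole range, past Dixon's 95% critical value for 7 samples. Chance gives about 1 in 20 such cases, a rate that does not apply to a family picked with these results known. The other Igf1 probe had 0.503 and Igfbp6 0.545, which did not pass. On the percent scale 5 of the 10 probes passed, both Igf1 probes, Igf1r, Igfbp3 and Igfbp6, all through replicate 3. Of these, Igf1r and Igfbp3 read near the floor of that array.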

How the results depend on the processing

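The number of probes more variable than limma's trend over all 7 arrays was 0, with 17 at an unadjusted p under 0.05. It ranged from 0 to 5 when each mouse was left out, the 5 without replicate 3. Without replicate 3 it was 5, and became 0 with quantile normalization, 0 with median-centred arrays, 0 without the dimmest probes, 0 with no trend and no robust fit, and 3 with the pseudocount, with 10, 17, 11, 14 and 21 at an unadjusted p under 0.05. Leaving out a further mouse gave 2 to 14, with 9 without replicate 1, 14 without replicate 4, 2 without replicate 5, 8 without replicate 6 and 2 without replicate 7. Igf2 passed each time a further mouse was left out (limma adjusted p = 2.14e-11 to 0.0466) and with the pseudocount (limma adjusted p = 0.0264). The lowest of these values came without replicate 4, where the log2 SD of Igf2 was 1.59, against 1.68 with that mouse. That value therefore does not reflect a wider spread of Igf2. Igfbp6 passed only without replicate 4 (limma adjusted p = 0.0491). At 5 times the floor 1 member, Igfbp6, was detected on the 6 arrays, instead of 2 at 3 times. No paired analysis was possible because the series holds 1 group.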

Other observations

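A probe without a gene name, 10C, was low and high in the same mice as Igf2, and was chosen after its values were seen. Replicates 4, 5, 6 and 7 read 2.61%, 1.89%, 2.13% and 0.91%, while replicate 3 read 0.18% and replicates 1 and 2 read 0.07% each. Its log2 SD without replicate 3 was 2.46, which passed the variance test (limma adjusted p = 0.0031, and 0.340 with replicate 3).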
